A study of Chlorocebus aethiops with 30 samples.

Results

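Genes of the C2H2 zinc finger transcription factors were followed in Vero, a monkey (Chlorocebus) kidney epithelial cell line, directly after the cells had been detached with trypsin or with TrypLE, a recombinant trypsin substitute. Members were taken by name from the authors' comparison of the 2 enzymes at 0 h, as symbols that begin with ZNF, ZBTB, ZSCAN, ZKSCAN or ZFP followed by a digit, without the CCCH proteins ZFP36, ZFP36L1 and ZFP36L2. This gave 25 of the 1237 genes in that table, 19 named ZNF, 5 named ZBTB and 1 named ZKSCAN, with 0 named ZSCAN or ZFP. Only genes whose unadjusted p was under 0.05 are in this table, so every member had to differ to some degree in order to be counted. How many such genes were tested and left unlisted is not known from the files, and 25 therefore cannot be read as a share of the family.

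The series holds 30 RNA samples in 10 groups of 3, all of unmodified Vero cells passaged at high density. The groups described here are cells digested with trypsin at 37 °C and collected at 0 h, directly after digestion, and the same cells returned to culture and collected after 8 or 24 h. A second set was digested with TrypLE at 37 °C and collected at 0, 8 or 24 h, and the control cells were detached at 37 °C with an enzyme-free solution and collected at once. Cells at 8 and 24 h were also collected with the enzyme-free solution, and 9 samples treated with TrypLE from 4 °C at 25 °C were not analysed here. The series' design text calls the replicates biological, but no label names separate cultures. The p-values thus cover no more than the spread among these samples, and that spread may be technical.

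C2H2 zinc finger proteins bind DNA through short loops, each held around a zinc ion by a pair of cysteines and a pair of histidines, and arrays of such fingers read longer DNA sites. Many carry a second domain that recruits partners. The KRAB box (Krüppel-associated box) binds the corepressor TRIM28 and so directs H3K9 methylation to transposable elements and some genes, whereas BTB and SCAN domains mediate pairing between proteins and, for BTB, contact with corepressors such as NCOR1. The family is large, many of its genes sit in clusters of recent duplicates, and most are weakly expressed in any one tissue.

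Values per library are normalized counts, which are read counts that the authors divided by a size factor for each library. Reads over the 1237 listed genes numbered 1827824, 1659930 and 1656319 per trypsin library, against 2192333, 2160269 and 1957344 per TrypLE library. The members drew 11159, 10498 and 10595 of these reads after trypsin, against 7302, 7828 and 7714 after TrypLE. ZBTB6 alone drew 10505 reads over the 3 trypsin libraries and 5205 over the 3 TrypLE libraries. Without ZBTB6, the members' normalized counts summed to 6746, 7804 and 7623 after trypsin, against 5959, 5428 and 5676 after TrypLE. Of 11 kidney epithelial markers, AQP1, a water channel of the proximal tubule, was listed, with 20018 ± 704 normalized counts after trypsin, against 22777 ± 896 after TrypLE (± SD, 3 libraries per group). The other 10 and all 12 fibroblast, immune and endothelial markers were not listed, so the cell type could not be checked further in this table.

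Annotation text in the authors' table matched all 25 members to proteins named as zinc finger proteins. A C2H2 finger domain was itself named for 10 of them, a KRAB box for 9 and a BTB domain for 5. ZKSCAN2 had a SCAN domain without a KRAB box, and ZNF202 had both. The remaining 10 had none of these 3 partner domains in the annotation. Members without a named finger domain include ZNF703, whose annotation names a NocA-like zinc finger domain, and ZNF638, which binds RNA and DNA, so the label describes the family by name rather than by a domain shown for every gene.

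Directly after trypsin, 23 of the 25 zinc finger genes had a higher level than directly after TrypLE and 2, ZNF568 and ZNF23, a lower one. The median difference was a log2 fold change of 0.50, about 41.3% more after trypsin, against a median of -0.29 over all listed genes. Only ZBTB6 rose by the threshold used here, an adjusted p below 0.05 in the authors' deposited table, and 0 members fell by it. Over the 15194 genes that the authors adjusted over, 1.65% were called, 0.23% higher after trypsin and 1.42% lower. Of all listed genes 42.9% were higher after trypsin. In bulk RNA, fewer cells of a kind and less RNA per cell cannot be told apart.

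For 19 members (76%) the 3 trypsin libraries did not overlap the 3 TrypLE libraries, 18 of them higher and ZNF568 lower. This share is close to the 75.6% among all listed genes and is no result about the family. Differences of at least 2-fold were found in 3 members, ZBTB6, ZNF585B and ZNF154, of which ZNF585B and ZNF154 rest on few reads.

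**Figure D1:**
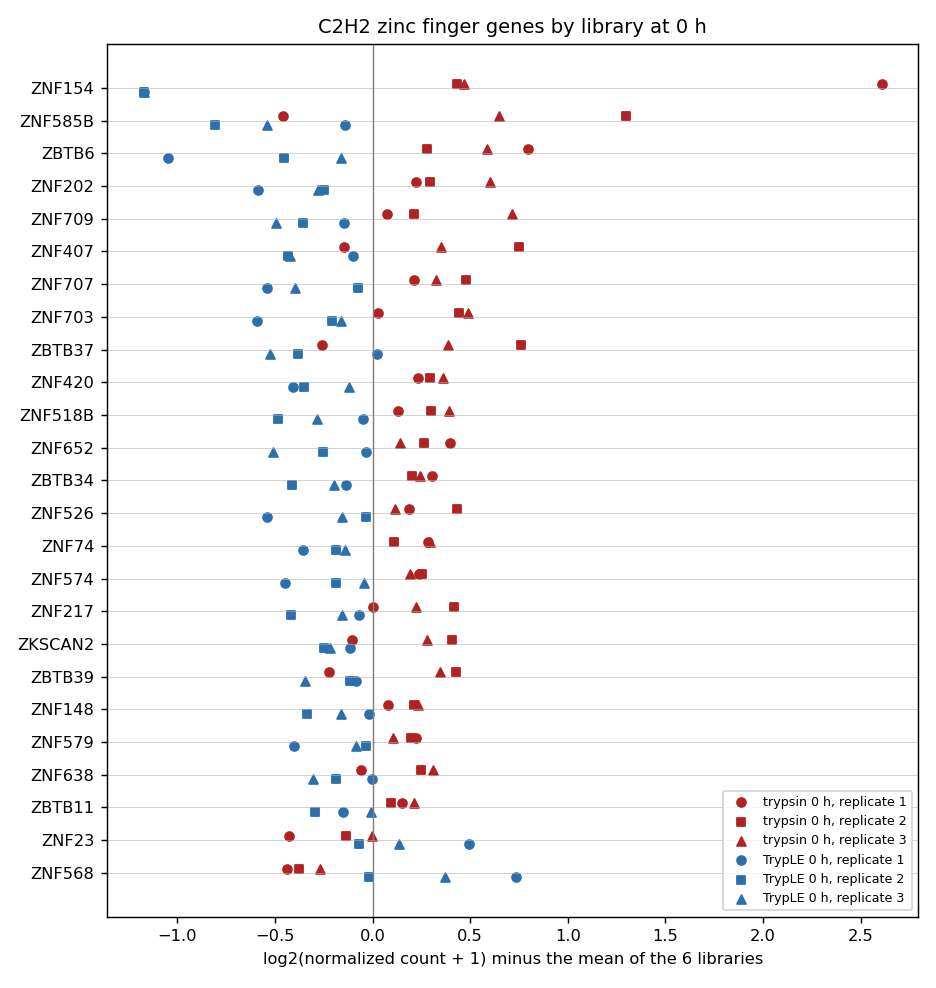
Each row is 1 of the 25 zinc finger genes, ordered by the authors' fold change, and each point is 1 library: red for trypsin and blue for TrypLE at 0 h, with the marker shape giving the replicate. The x axis is the log2 of the normalized count plus 1, less the mean of the 6 libraries, and red lies to the right of blue without overlap in 18 genes and to the left in ZNF568.

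ZBTB6, a BTB zinc finger protein whose function is little studied, was the member with the highest level and the only one called. It had 4162, 2908 and 3597 normalized counts in the trypsin libraries, against 1158, 1746 and 2140 in the TrypLE libraries. All trypsin libraries lay above all TrypLE libraries, and trypsin replicate 1 held its highest value. The authors' deposited table gives a log2 fold change of 1.08 and an adjusted p of 0.012. A DESeq2 refit on the listed genes alone gave a standard error of 0.20 and a smaller adjusted p of 7.88e-06. This standard error is thus not that of the authors' fit. From recovered reads edgeR and DESeq2 each called this member alone, where 1.39% and 1.7% of the genes fitted were called higher. It was called in all 16 refits, at adjusted p between 1.56e-08 and 0.0223 and log2 fold changes between 0.87 and 1.36. The refits reuse the same libraries and estimate the spread only from listed genes, which had to have an unadjusted p under 0.05. Their adjusted p can therefore be too small, and the repeated call is not independent support.

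The locus behind this value is uncertain. In the authors' annotation the gene called ZBTB6 carries a cyclophilin-type peptidyl-prolyl isomerase domain besides its BTB domain, and its transcription factor family entry names the isomerase. Cyclophilin A is an abundant housekeeping protein of another family, and primate genomes hold many retrocopies of its gene. ZBTB6 had 2099 normalized counts per kilobase after trypsin, against 992 after TrypLE, and its mean over the 6 libraries was 9.58 times that of ZNF574, the member with the next highest level per length. It was also the shortest member, with 1694 bases. Whether reads of a cyclophilin sequence were counted to it was not tested.

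Of the 4 other listed genes with this domain in their annotation, 1 was higher after trypsin and 3 were lower. RANBP2, a nuclear pore protein that ends in a cyclophilin domain, had 2371 ± 419 normalized counts after trypsin, against 1569 ± 215 after TrypLE (± SD, 3 libraries per group), and was called higher in the authors' deposited table (adjusted p = 0.0049). LOC119620106, a short gene of 746 bases, had 1697 ± 356 after trypsin and 3195 ± 1125 after TrypLE (± SD, 3 libraries per group), with groups that did not overlap. CD300LG had 62.6, 83.7 and 67.8 after trypsin, against 162, 97.1 and 100.3 after TrypLE, also without overlap. PPIL3 had 887 ± 181 after trypsin and 1144 ± 213 after TrypLE (± SD, 3 libraries per group), with overlap. These 3 lower genes were not called. Without ZBTB6, 0 of 24 members were called and the median log2 fold change was 0.49.

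**Figure D2:**
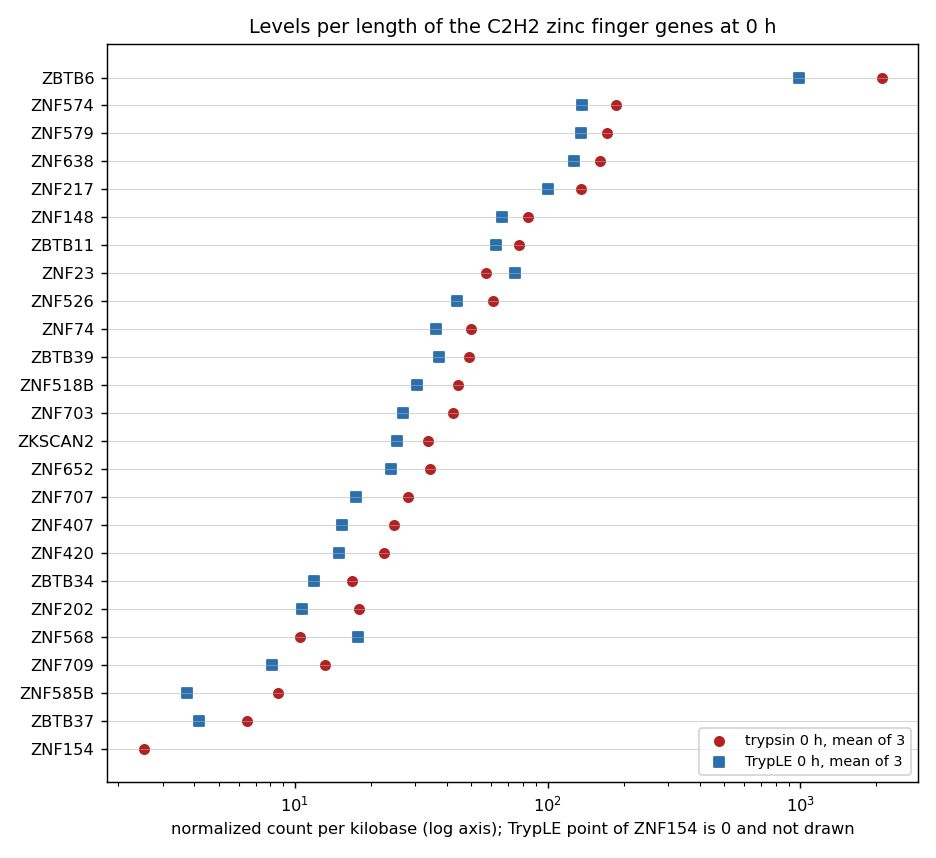
Normalized counts per kilobase of gene length (log axis) for each member, as means of 3 trypsin libraries (red circles) and 3 TrypLE libraries (blue squares) at 0 h. ZBTB6 stands at 2099 after trypsin and 992 after TrypLE, while the other members lie below 200, and the order of the members is much the same in both groups.

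Among the 5 BTB members all were higher after trypsin, at log2 fold changes of 0.30 to 1.08. Libraries did not overlap in 3 of them, where the share among all listed genes was 75.6%. All but ZBTB6 were longer than 5000 bases, and 90.8% of other listed genes of at least 5000 bases were higher. Neither count is a result about BTB members. ZBTB34, a BTB zinc finger protein of little known function, had 119, 111 and 114 normalized counts after trypsin, against 87.7, 72.4 and 84.1 after TrypLE. ZBTB11, which binds promoters of nuclear genes for mitochondrial proteins, had 514, 494 and 535 after trypsin, against 416, 377 and 459 after TrypLE. Both separated the groups, while neither was called (authors' deposited table, adjusted p = 0.596 and 0.572). ZBTB37, the longest member with 19762 bases, had 83.1, 169 and 130 after trypsin, against 101.4, 76.1 and 68.9 after TrypLE. ZBTB39 had 227, 356 and 337 after trypsin, against 249, 244 and 208 after TrypLE. ZBTB37 lies 215 bases from LOC103230560 on the opposite strand, a gene with a log2 fold change of -0.56 (authors' deposited table, adjusted p = 0.00256). In ZBTB37 and ZBTB39 trypsin replicate 1 lay within the TrypLE range and the other trypsin libraries above it.

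KRAB members had the lowest median level per length of the 4 domain groups. Of the 9, 7 were higher and 2 lower after trypsin, 0 were called, and that level was 14.3 normalized counts per kilobase, against 63.5 for the members with none of the partner domains. ZNF202, a SCAN and KRAB repressor of lipid transport genes in human cells, had 113, 119 and 148 normalized counts after trypsin, against 64.3, 81.6 and 80.0 after TrypLE. Its groups did not overlap, and the authors' deposited table gives 0.75 as its log2 fold change and 0.11 as its adjusted p. ZNF420, reported to restrain p53 in human cells, had 87.0, 90.8 and 95.3 after trypsin, against 55.6, 57.7 and 67.9 after TrypLE. ZNF74, a gene of the human DiGeorge region, had 207, 184 and 209 after trypsin, against 133, 149 and 154 after TrypLE. In both of these the groups were separate as well, at log2 fold changes of 0.59 and 0.46 that were not called (authors' deposited table, adjusted p = 0.518 and 0.407). ZNF707 and ZNF709 had log2 fold changes of 0.67 and 0.70 and were separate too, from 246 and 196 reads over the 3 trypsin libraries.

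ZNF568 had the largest difference in the opposite direction. Its mouse counterpart is a KRAB repressor of a placental Igf2 transcript. It had 72.3, 75.5 and 81.5 normalized counts after trypsin, against 165, 97.1 and 128 after TrypLE. The trypsin libraries lay close together and below all TrypLE libraries, which themselves spread widely. By the authors' deposited table it differed by -0.76 on the log2 scale, at an adjusted p of 0.149. ZNF23, a KRAB protein linked to slower growth in human cell lines, had 198, 243 and 267 after trypsin, against 377, 255 and 294 after TrypLE, and the groups overlapped (log2 fold change -0.39; authors' deposited table, adjusted p = 0.642).

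ZNF568 lies beside members with the opposite sign. In the positions of the authors' table, whose genome build is not given in the sources used here, ZNF568, ZNF420 and ZNF585B fall within 219 kb of 1 scaffold. ZNF568 and ZNF420 are 20537 bases apart on the same strand, and ZNF420 and ZNF585B are 62664 bases apart on opposite strands. ZNF568 had a log2 fold change of -0.76, against 0.59 for ZNF420 and 1.21 for ZNF585B. None of these was called (authors' deposited table, adjusted p = 0.149, 0.518 and 0.640). The value of ZNF585B rests on 72 reads after trypsin and 33 after TrypLE, with groups that overlapped. ZNF574 and ZNF526 lie on that scaffold too, so that it held 5 of the 25 members, and the whole set was spread over 16 scaffolds.

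Some KRAB values rest on few reads. ZNF154, whose promoter is often methylated in human tumours, had 13, 2 and 2 reads in the trypsin libraries and 0 in each TrypLE library. Against a floor of 3 reads over the TrypLE group, the trypsin reads gave a ratio of 5.82. This ratio is not a lower limit, because it allows for no counting error in the trypsin reads, most of which came from trypsin replicate 1. In the authors' deposited table it has an adjusted p of 1, a value it shares with other listed genes, all with means of at most 13.1 normalized counts. ZNF585B had 10.8, 38.8 and 24.4 normalized counts after trypsin, against 13.6, 8.25 and 10.1 after TrypLE, and the groups overlapped. ZNF585B has a near-identical neighbour copy in the human genome, so the assignment of its reads is uncertain.

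The 10 members without a KRAB, BTB or SCAN domain in the annotation were all higher after trypsin, at log2 fold changes of 0.33 to 0.68, and 0 were called. ZNF574 had 730, 738 and 707 normalized counts after trypsin, against 454, 543 and 600 after TrypLE. Its trypsin libraries were tightly grouped above the TrypLE libraries, and after ZBTB6 it had the lowest adjusted p among members, 0.0786 by the authors' deposited table. ZNF518B, which associates with the H3K9 methyltransferase EHMT2, had 329, 369 and 394 after trypsin, against 290, 214 and 246 after TrypLE. ZNF652, a repressor that works with CBFA2T3, had 429, 392 and 359 after trypsin, against 319, 273 and 229 after TrypLE. The authors' deposited table gives them adjusted p of 0.0826 and 0.0974. These 3 genes and ZBTB6 were the 4 members below 0.1.

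Among the same 10 are factors linked to cancer and metabolism. ZNF217, an oncoprotein of breast cancer that recruits corepressors, had 697, 930 and 810 normalized counts after trypsin, against 664, 521 and 624 after TrypLE, a difference of 0.43 on the log2 scale (authors' deposited table, adjusted p = 0.163). ZNF703, a NocA-like factor amplified in luminal breast cancers, had 114, 153 and 158 after trypsin, against 74.1, 97.1 and 100.3 after TrypLE. ZNF148, which binds GC-rich promoters, had 700, 767 and 779 after trypsin, against 654, 524 and 592 after TrypLE. In all 3 the groups were separate, and trypsin replicate 1 was the lowest trypsin library. ZNF638, which helps to silence unintegrated retroviral DNA, had 915, 1135 and 1182 after trypsin, against 953, 838 and 772 after TrypLE. ZNF407, a factor of glucose uptake in fat cells, had 139, 259 and 196 after trypsin, against 143, 114 and 114 after TrypLE. In these 2 genes TrypLE replicate 1 lay above trypsin replicate 1, so the groups overlapped. The same group held ZNF526, with 190 ± 22.5 after trypsin and 136 ± 24.1 after TrypLE, and ZNF579, with 517 ± 22.3 after trypsin and 407 ± 54.5 after TrypLE (± SD, 3 libraries per group). ZKSCAN2, the SCAN member, had 249 ± 44.0 after trypsin and 189 ± 9.09 after TrypLE (± SD, 3 libraries per group).

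Weakly expressed members had larger differences, and a gene with few reads needs a larger one to be listed. The median absolute log2 fold change was 0.69 for the 6 members with a mean below 100 normalized counts, 0.56 for the 10 members between 100 and 300, and 0.43 for the 9 members of at least 300.

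The direction of the members was next set beside that of other genes of like length and level, because direction in this table varied with gene length. Members had a median length of 5994 bases and a median mean of 173 normalized counts, against 1958 bases and 493 normalized counts for the other listed genes. Of other listed genes under 1000 bases 9.44% were higher after trypsin, against 90.8% of those of at least 5000 bases. Between the 25th and 75th percentiles of the members' lengths (3365 to 7305 bases) and of their means (101.2 to 462 normalized counts) there were 77 other listed genes. Of these 83.1% (64) were higher after trypsin, with a median log2 fold change of 0.37, against 92% (23) and 0.50 for all members. Of the 6 members inside the same limits 4 were higher. With length alone, 76.9% (186) of 242 genes were higher, at a median of 0.33. The higher level of the members after trypsin was thus shared in direction by most other listed genes between 3365 and 7305 bases, and the difference between members and those genes was not tested.

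Short members were higher after trypsin where most other listed genes of their length were lower. All 5 members under 3000 bases were higher after trypsin, namely ZBTB6, ZNF154, ZNF585B, ZNF707 and ZNF579. Among the 188 other listed genes between 1694 and 3000 bases, 35.6% (67) were higher. With 5 genes, of which 2 have few reads and ZBTB6 is uncertain, this is a description only. Of the 14 members of at least 5000 bases 13 were higher, and the exception was ZNF568.

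**Figure D3:**
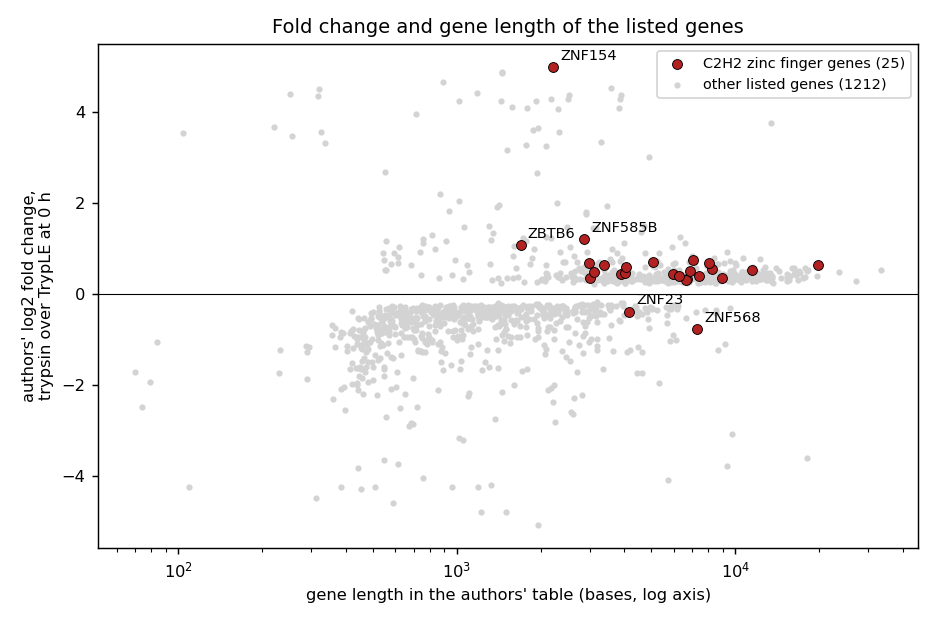
Authors' log2 fold change of trypsin over TrypLE at 0 h against gene length (log axis) for the 25 zinc finger genes (red) and the 1212 other listed genes (grey). Below 1000 bases 9.44% of the grey points lie above 0, and at 5000 bases or more 90.8% do, while 23 of 25 red points lie above 0 and ZNF568 and ZNF23 below.

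The 6 libraries moved with length as well. The members' median deviation from the mean of the 6 libraries, on a log2 scale, was 0.13, 0.29 and 0.31 in the trypsin libraries, against -0.14, -0.26 and -0.20 in the TrypLE libraries. For the 77 genes of like length and level it was 0.11, 0.19 and 0.22 after trypsin, against -0.08, -0.20 and -0.18 after TrypLE. For the other listed genes under 1000 bases the deviations ran the other way, at -0.11, -0.48 and -0.35 after trypsin, against 0.45, 0.29 and 0.22 after TrypLE. Trypsin replicate 1 lay nearest to the TrypLE libraries for all 3 sets of genes. Without it, 24 of 25 members had separate groups, against 19 with all libraries. Leaving out a library can only keep or raise this number. The share over all listed genes without that library is not given here, so the rise is no result about the family. The part of gene length in the members' differences was not tested.

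With a trend on length removed from each library, edgeR gave the 24 members that passed its expression filter a median log2 fold change of 0.28, against 0.02 over the other listed genes and 0.17 over the 77 genes of like length and level. All 24 kept their direction, 22 higher and 2 lower. So did all 77 genes of like length and level, 64 higher and 13 lower, so this is no result about the family. Of the 1123 other listed genes fitted, 312 changed sign. ZBTB6 was called at 1.32 (adjusted p = 0.0138) and no other member, where 2.01% of the genes fitted were called higher. ZNF568 had -1.05 (adjusted p = 0.0686). ZNF148 and ZBTB11 had the smallest absolute values of the 24, at 0.01 and 0.03, while ZNF707 had 0.68 and ZNF703 0.59. The part of length in these values was not tested. Members were among the genes that set the trend.

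Scaling factors taken over the listed genes raised every member's value. With such factors the median over all genes fitted was -0.14 (TMM) or -0.10 (median ratio), against -0.29 with the authors' size factors, and the members' median was 0.65 or 0.69, against 0.49. The distance between members and all genes thus stayed at a similar size, and no member changed sign. Under both factors edgeR called 3 members higher, ZBTB6, ZNF518B (adjusted p = 0.0331 and 0.0448) and ZNF652 (adjusted p = 0.0331 and 0.0462), where 6.56% and 4.37% of the genes fitted were called higher. Listed genes were mostly lower after trypsin, so such factors shift all fold changes upwards by construction.

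**Figure D4:**
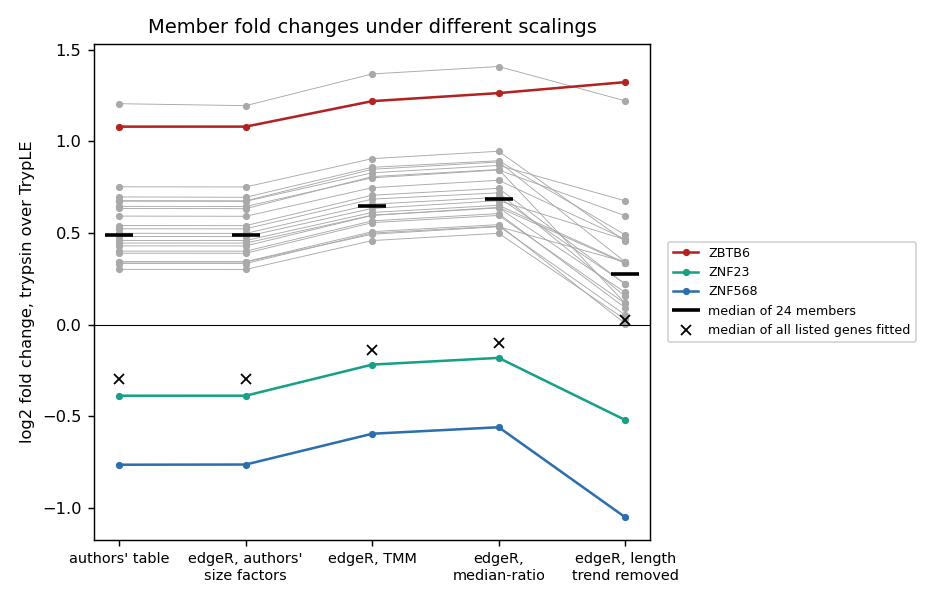
Log2 fold change of trypsin over TrypLE at 0 h for the 24 zinc finger genes that edgeR could fit, in the authors' table and in 4 edgeR refits, with 1 line per gene. Bars give the members' median (0.49 with the authors' size factors, 0.28 with the length trend removed), crosses the median of all listed genes fitted, and ZBTB6, ZNF23 and ZNF568 are coloured.

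Values in the other groups were at hand for 3 members, in the authors' union table of 340 selected genes, as means on an FPKM scale (read counts scaled to gene length and library size) without an error or n. ZBTB6 had 133, 51.0 and 44.2 at 0, 8 and 24 h after trypsin and 63.1, 94.0 and 78.1 at 0, 8 and 24 h after TrypLE, against 86.9 in the enzyme-free control. It was thus 1.53 times the control directly after trypsin and 0.726 times the control directly after TrypLE. At 8 and 24 h the order of the enzymes was the opposite, with trypsin at 0.542 and 0.566 times the TrypLE mean, against 2.11 times at 0 h.

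ZNF217 had 8.60, 7.67 and 10.3 at 0, 8 and 24 h after trypsin and 6.40, 11.3 and 12.1 after TrypLE, against 9.53 in the control. ZNF707 had 1.78, 2.18 and 2.01 after trypsin and 1.11, 2.82 and 2.10 after TrypLE, against 2.39 in the control. Both stood below the control directly after either enzyme, at 0.902 and 0.745 times the control after trypsin and 0.671 and 0.467 times after TrypLE. All 3 genes were higher after trypsin than after TrypLE at 0 h and lower after trypsin at 8 and 24 h. The share of the 340 genes with this order is not given here, so the order is no result about the members. For ZNF707 the difference at 24 h was slight, with trypsin at 0.957 times the TrypLE mean. These ratios compare means without a replicate check. The table was selected by the authors, and all ratios to the control share the same control samples.

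**Figure D5:**
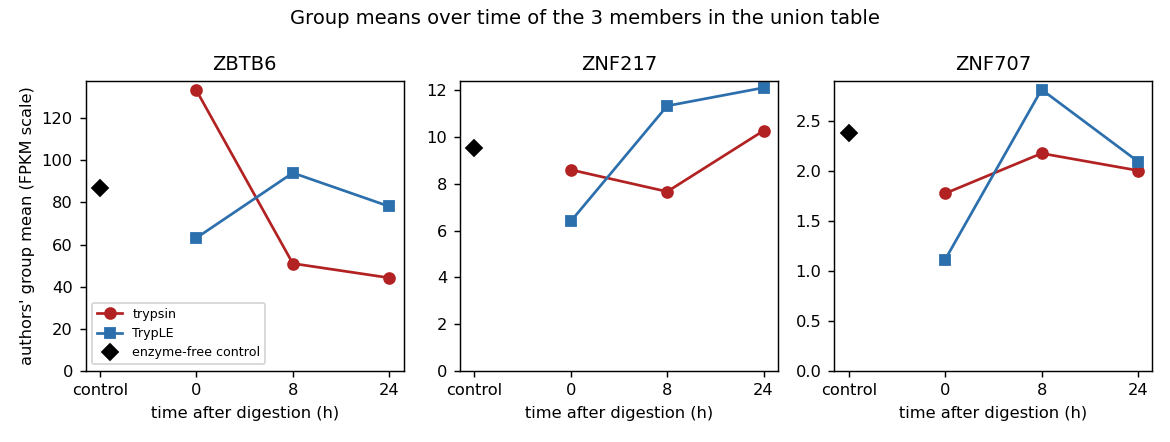
Authors' group means on an FPKM scale for ZBTB6, ZNF217 and ZNF707 in the enzyme-free control (black) and at 0, 8 and 24 h after trypsin (red) or TrypLE (blue), without error bars because the table holds means alone. In each panel the red point lies above the blue at 0 h and below it at 8 and 24 h.

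Of 29 KRAB corepressor and H3K9 methylation genes 3 were listed, all higher after trypsin and 0 called. Their median length was 5804 bases, and of other listed genes of at least 5000 bases 90.8% were higher after trypsin. UHRF1, which reads H3K9 methylation for DNA methylation, had 1396 ± 90.9 normalized counts after trypsin, against 1139 ± 107 after TrypLE. TASOR2, related to a subunit of the HUSH silencing complex, had 833 ± 158 after trypsin and 643 ± 59.7 after TrypLE. DNMT1, the maintenance DNA methyltransferase, had 2808 ± 379 after trypsin and 2311 ± 218 after TrypLE (± SD, 3 libraries per group). TRIM28 and SETDB1 were not listed. Of 19 partners of BTB and SCAN proteins 2 were listed, TBL1XR1 and BCOR, of 6842 and 7849 bases, both higher and not called. The authors' deposited table gives them log2 fold changes of 0.35 and 0.33.

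C2H2 factors with names outside the rule went both ways. Of those in a looked-up list that does not cover the whole class, 11 were listed and 90 were not. The 11 were 5 higher and 6 lower after trypsin, with a median log2 fold change of -0.35, and 1 was called, KLF6, a growth-control factor of the Krüppel-like family. KLF6 had 755, 1015 and 955 normalized counts after trypsin, against 2270, 2131 and 2178 after TrypLE. Those lower were KLF5, KLF6, KLF7, EGR1, EGR2 and EGR3, of the Krüppel-like and early growth response families. Those higher were PRDM15, ZMAT1, ADNP2, REST, a repressor of neuronal genes, and GZF1, a BTB zinc finger protein. PRDM15 had the largest difference among the 5 higher genes of that list, with 0.79 on the log2 scale (authors' deposited table, adjusted p = 0.17). YY2 and ZIC2, C2H2 factors missing from the list and named here after their values were seen, were also higher, at log2 fold changes of 1.81 and 0.37. YY2 had a mean of only 17.6 normalized counts over the 6 libraries. Also missing from the list were LOC119618786 and LOC103227212, whose annotation names a C2H2 finger domain, with log2 fold changes of -0.58 and 0.36. They too were looked up after their values were seen. Of the 5 listed genes outside the name rule with this domain in their annotation, 2 were higher and 3 lower. These 5 include PRDM15, EGR2 and KLF5, counted above. Of 49 zinc finger genes that are not C2H2 factors 5 were listed, 4 higher and 1 lower, and 1 was called. The called one was ZC3H10, with 3342 ± 329 normalized counts after trypsin, against 7997 ± 1740 after TrypLE (± SD, 3 libraries per group).

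Listed genes with the same partner domains but no name in the rule were looked up after their values were seen. The 2 others with a KRAB box, LOC103227199 and LOC119623140, were lower after trypsin and measured 678 and 849 bases. LOC103227199 had 23.6 ± 6.56 normalized counts after trypsin, against 45.0 ± 8.42 after TrypLE, and LOC119623140 had 91.4 ± 18.2 after trypsin and 133 ± 16.7 after TrypLE (± SD, 3 libraries per group). The 4 others with a BTB domain were KLHL11, GZF1 (named above), BTBD7 and ANKFY1, of 2455, 4294, 9724 and 7522 bases. They were higher after trypsin, as was ZBED9, of 5143 bases, the 1 other with a SCAN domain. These BTB and SCAN genes were not called (authors' deposited table, adjusted p of 0.301 to 0.627), and KLHL11 and BTBD7 overlapped. Of other listed genes 9.44% under 1000 bases and 90.8% of at least 5000 bases were higher. In the authors' pathway table, 0 of the 25 members appeared in any of 274 KEGG pathways.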

How the data were processed

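The submitters' processing notes name HISAT2 2.0.5 and featureCounts 1.5.0-p3. Genome build, annotation, strand setting and differential test are not stated in those notes or in the labels, so antisense and overlapping genes cannot be told apart. The library columns hold a normalized signal that the authors deposited, equal to read counts over a size factor per library. All values (100%) in each of the 6 columns were whole multiples of 1 step within 0.01 reads, and in TrypLE replicate 1 few low values bear on this. The log2 fold changes and p-values were deposited by the authors, as trypsin over TrypLE, and their adjusted p match Benjamini-Hochberg values for 15194 genes. The FPKM unit of the deposited union table was inferred from 206 shared genes, where the normalized count per kilobase is 15.7 times the union mean (coefficient of variation 0.108%).

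The authors' fold change and adjusted p (threshold 0.05) were the main result. Recovered reads were refitted by edgeR 4.0.16 (quasi-likelihood; 1147 genes past its expression filter, 1143 with TMM or median-ratio factors, none of them ZNF154) and by DESeq2 1.42.0 (all 1237 listed genes), and log2(normalized count + 1) was fitted by limma 3.58.1, under R 4.3.3, with p-values adjusted over 15194 genes. edgeR called 170 of 1147 genes. The length trend was a loess curve (span 0.5) of each library's deviation on log2 length. Fits were tested on simulated data. Tables were made with Python 3.11.15 and pandas 2.3.3.

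Members and lists were chosen with earlier results of these data known. All 25 members were named, since the rule took called, lower, union-table, strongest, weakest and most changed members up to 25.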

Additional observations from a re-analysis of the deposited data

How the results depend on the processing

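All 25 members kept their direction in every refit that fitted them. With the length trend removed, so did the 77 other genes of like length and level. Of 388 refitted gene values 384 stayed on the same side of the threshold while 4, ZNF518B and ZNF652 under 2 scalings, passed it. The refits share the same libraries and use listed genes alone, so they are not independent checks. Members called higher numbered 1 in the authors' table and 1 in edgeR, DESeq2, limma and edgeR without an expression filter, but 3 with TMM and 3 with median-ratio factors. They numbered 0 among ZNF members, 0 for ZKSCAN2 alone and 0 without ZBTB6, an alternative chosen after the data were seen. Members called lower numbered 0 in each of these, with ZNF568 the nearest.

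The median log2 fold change of 0.50 became 0.65 with TMM and 0.69 with median-ratio factors, 0.28 with the length trend removed, and 0.27 with the length trend removed and a replicate block. Leaving out 1 library (edgeR, the spread pooled over groups) gave 1 member called higher and 0 lower each time, medians of 0.43 to 0.53 and 19 to 24 members with separate groups. The number of separate groups can only stay or rise when a library is left out, and no share over all listed genes stands beside it. Separate groups numbered 3 among ZBTB members and 1 for ZKSCAN2, by the smaller number of genes. The cause of the other shifts was not tested.

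Over 1024 listed genes, deviations of same-numbered libraries correlated at 0.00, 0.07 and -0.05, which gave no sign of pairing by replicate number. These genes were selected for a difference between the enzymes, and no label states a pairing, so whether the samples were paired is not settled. The edgeR fit with a replicate block had a members' median of 0.50, 1 member called higher and 0 lower, and it changed no member's call. The planned restriction to members with finger patterns in their protein was not run, since no protein sequences were used here. Intervals and floors on reads cover counting error only, and the floor for ZNF154 does so for the TrypLE group alone. Of the 6 members with a mean below 100 normalized counts 0 were called.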
